A study of Canis lupus familiaris with 28 samples.

Results

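The transcripts described here were at nearly the same level in confluent and sub-confluent wild-type cells and were raised in confluent cells given shRNAs against both p190 proteins. They number 79 of the 29884 Ensembl dog transcripts counted. The members were chosen by their measured level in CPM, the reads of a transcript scaled to a common library total, taken as log2 of the group mean CPM plus 1. In experiment 1, a member differed by less than 0.4 between confluent and sub-confluent wild-type cells and was at least 0.8 higher in confluent double knockdown than in confluent wild-type cells. In experiment 2 it was again at least 0.8 higher in double knockdown cells, and the p190A and p190B knockdowns of experiment 1 differed by less than 0.7 at confluence. A step of 1 on this scale is a doubling.

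The cells were TR-T10, a line of dog origin whose introduced constructs are switched on by doxycycline. Retroviral shRNAs against p190A, against p190B or against both were induced with doxycycline at 4 µg/ml for 3 days, after which cells were replated sparsely or densely for 3 to 5 days. Experiment 1 held wild-type, p190A knockdown, p190B knockdown and double knockdown cells, each confluent and sub-confluent, with 2 libraries in each of 8 groups. All cells of experiment 2 were confluent, and its groups were wild type (3 libraries), both shRNAs (3 libraries), both shRNAs plus YAP5SA+S94A (3 libraries) and those labelled YAP5SA (2 distinct libraries). The YAP constructs were delivered by lentivirus and induced by the same doxycycline as the shRNAs. The labels do not settle whether the YAP5SA cells also held both shRNAs: the genotype field names them, the source name and the titles do not. Nor do they say whether wild-type cells received doxycycline. Each shRNA line was selected in hygromycin, puromycin or both and the YAP lines in G418, while no selection is given for wild type, so line and genotype cannot be told apart.

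p190A (ARHGAP35) and p190B (ARHGAP5) are related GTPase-activating proteins. YAP1 is a transcriptional coactivator that acts mainly through TEAD DNA-binding factors and is kept out of the nucleus in crowded epithelial cells, a brake known as contact inhibition. YAP5SA cannot be phosphorylated at its LATS kinase sites and so stays active, and the added S94A change removes its binding to TEAD.

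Transcript identifiers stand in the files without gene names, and 0 of the 79 members matched the reference table. No gene, protein or pathway is therefore named, the knockdowns and the cell type could not be checked through their genes, and only 4 identifiers are printed. Bulk libraries cannot separate a change in RNA per cell from a change in the share of cells that make it.

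Of 326 transcripts raised by at least 0.8 in both experiments, 107 were flat between densities in wild-type cells, and 79 of these were also alike in the single knockdowns. The next values are those that chose the members, so they are a description with no test. Confluent double knockdown cells of experiment 1 exceeded wild type by 0.80 to 3.15, with a median of 1.08. The rise in experiment 2 spanned 0.81 to 2.81, with a median of 1.15. The confluent minus sub-confluent difference in wild-type cells lay between -0.40 and 0.38, with a median of -0.19, so the flat window held members that leaned towards lower levels at confluence. The member nearest the density limit differed by 0.396 and the nearest transcript outside it by 0.4004, and 153 transcripts failed on density alone. At the limit of 0.8 for the rise, the nearest values inside and outside were 0.801 and 0.799 in experiment 1 and 0.810 and 0.7998 in experiment 2. For the single knockdowns, the nearest values were 0.696 inside and 0.737 outside.

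The members covered a wide range of abundance. Averaged over the 12 groups, their levels ran from 0.627 to 969 CPM with a median of 37.3 CPM, and 19 members reached 100 CPM while 17 stayed under 10 CPM, 2 of these under 1 CPM. Together they took 0.347% of transcript-assigned reads in confluent wild-type cells and 0.944% in confluent double knockdown cells of experiment 1. In sub-confluent cells the shares were 0.383% and 1.12%, and in experiment 2 they were 0.315% and 0.742%. Of these sums, ENSCAFT00000045978 alone made up 363 and 2160 CPM in confluent wild-type and double knockdown cells of experiment 1. Without it, the summed level of the others went from 3109 to 7275 CPM at confluence and from 3461 to 8204 CPM in sub-confluent cells.

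**Figure D1:**
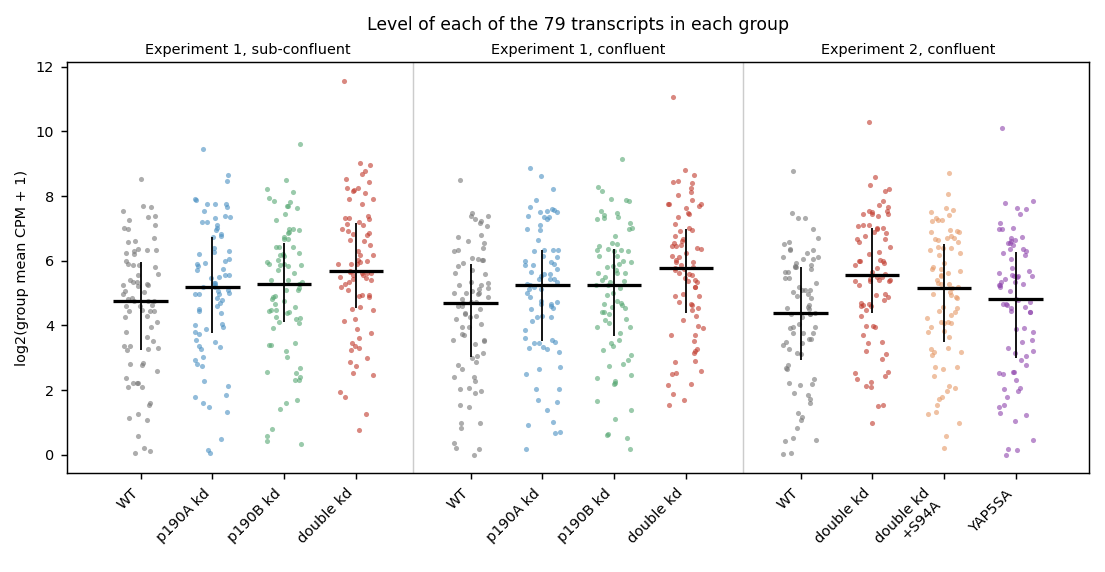
Level of each of the 79 transcripts in each of the 12 groups, as log2 of the group mean CPM plus 1 (points), with the median (horizontal bar) and the quartiles (vertical bar). The median was 4.69 in confluent wild-type and 5.78 in confluent double knockdown cells, a difference the selection required, while in sub-confluent cells, where the double knockdown was not used for selection, it was 4.75 and 5.67.

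The total assigned to transcripts ran from 10706716 to 17215544 reads per library. All 79 members passed the filter on low counts in both experiments. Without the double knockdown libraries, 76 would have passed in experiment 1 and 77 in experiment 2. Thus 3 and 2 members entered the tests only through double knockdown libraries, of which the confluent ones were chosen to be high. In experiment 1 the sub-confluent double knockdown libraries were left out of this check as well. These members are kept in all counts below, and no count without them is given. Counts called higher in the sub-confluent double knockdown can therefore include up to 3 members whose calls are not free of the selection. The members' replicate libraries differed least in experiment 2, with a median SD over members of 0.040 to 0.079 on the log2(CPM + 1) scale. In experiment 1 this SD was 0.086 to 0.120 in 6 groups and widest in the sub-confluent p190A (0.151) and sub-confluent double knockdown (0.154) groups. The labels do not state the origin of replicates (shared or separate cultures), so a p-value here reflects only how far these samples spread, and that spread may be technical.

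The sub-confluent double knockdown libraries took no part in the selection, and they asked whether the rise was also there without confluence. Of the 79 members, 77 were called higher than in sub-confluent wild-type cells and 0 lower by edgeR's quasi-likelihood test (Benjamini-Hochberg adjusted p under 0.05 over all transcripts). Among all 12845 transcripts tested, 16.7% were called higher and 34.8% in either direction. The median log2 fold change of the members was 1.21, a 2.32-fold rise, against 0.01 for all transcripts, and 49 of the called members at least doubled. At an unadjusted p under 0.05, again 77 were higher and 0 lower, and DESeq2 called the same numbers. Here and below, shares of all tested transcripts called are given only for edgeR adjusted calls of the main fits. Counts at an unadjusted p, by DESeq2 or of members that at least doubled have no such share beside them. Nothing about the members as a set is read from those counts. Refit counts have no share either, so a drop in one cannot be told apart from fewer calls over all transcripts. The sub-confluent wild-type libraries had entered the rule through the density limit, so this comparison is not wholly separate from it. The 76 members with at least 10 counts in each of these groups had log2 fold changes from 0.49 to 3.02. In 78 of 79 members both double knockdown libraries lay above both wild-type libraries, where 37.3% of all tested transcripts did. Leaving out 1 library at a time left 65 to 74 of the members called.

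ENSCAFT00000045978 was the most abundant member. Its level in sub-confluent wild-type libraries was 301 and 429 CPM, and in sub-confluent double knockdown libraries it was 1731 and 4289 CPM. The groups did not overlap, and the double knockdown libraries differed from each other more than the wild-type ones did. The log2 fold change was 3.02 (SE 0.42, edgeR adjusted p = 1.0e-04). Without double knockdown replicate 2, which held the high value, it was 2.18 (adjusted p = 1.0e-03). The single knockdowns left this transcript much lower, at 404 and 985 CPM with the p190A shRNA and 744 and 823 CPM with the p190B shRNA. Neither differed from wild type past the threshold, with log2 fold changes of 0.94 (SE 0.39, edgeR adjusted p = 0.16) and 1.11 (SE 0.39, edgeR adjusted p = 0.066). These values are from the fit without a replicate block, while replicate 2 was the higher library in each of these sub-confluent groups. A missed threshold here is therefore not a sign of no change. The double knockdown exceeded each of them, by 2.08 over p190A (SE 0.40, edgeR adjusted p = 2.7e-03) and 1.91 over p190B (SE 0.40, edgeR adjusted p = 2.7e-03) on the log2 scale.

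ENSCAFT00000006098 had the next largest rise among the eligible members. It stood at 6.63 and 5.45 CPM in sub-confluent wild-type libraries and at 42.0 and 54.1 CPM in the double knockdown ones, a log2 fold change of 2.96 (SE 0.28, edgeR adjusted p = 5.5e-06). Here each single knockdown was already far above wild type. The p190A libraries held 38.3 and 23.4 CPM, a log2 fold change of 2.36 (SE 0.28, edgeR adjusted p = 2.2e-04). The p190B libraries held 59.0 and 42.9 CPM, a log2 fold change of 3.09 (SE 0.28, edgeR adjusted p = 1.4e-05). The double knockdown did not differ from either past the threshold, with log2 differences of 0.61 from p190A (SE 0.24, edgeR adjusted p = 0.095) and -0.12 from p190B (SE 0.24, edgeR adjusted p = 0.74). In experiment 2 the same transcript was low throughout. Its mean was 3.44 ± 0.701 CPM without and 6.84 ± 0.501 CPM with the shRNAs (SD, n = 3 each), against 6.97 ± 0.972 and 46.1 ± 6.04 CPM (SD, n = 2 each) in the confluent groups of experiment 1. The 2 experiments therefore gave very different sizes for its rise, 2.56 and 0.82 on the log2(CPM + 1) scale.

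**Figure D2:**
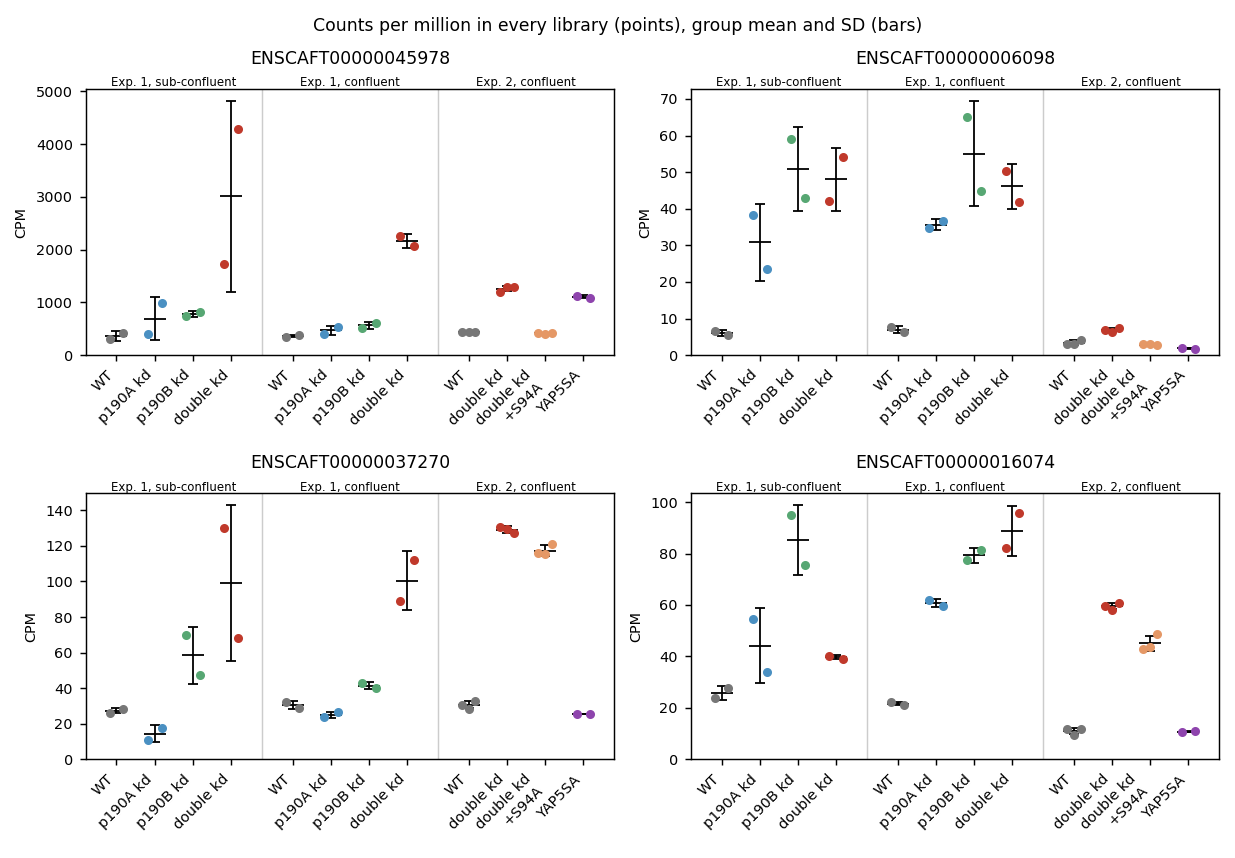
Level in CPM of the 4 named transcripts in every library (points), with the group mean (short bar) and SD (error bar), by experiment and density. ENSCAFT00000045978 was highest in the double knockdown groups of both densities, ENSCAFT00000006098 was high in every knockdown group of experiment 1 and under 10 CPM throughout experiment 2, and the lower 2 transcripts were near wild-type level in the libraries labelled YAP5SA.

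How the double knockdown compared with knockdown of either protein alone was tested in sub-confluent cells, where no library of the comparison had entered the rule. Against the p190A knockdown, 48 of 79 members were called higher in the double knockdown and 0 lower, with 8.65% of all tested transcripts called higher and 20.4% called in either direction. The median log2 fold change was 0.61 against -0.00 for all tested, and 20 of the called members at least doubled. At an unadjusted p under 0.05, 58 were higher and 1 lower, and DESeq2 called 48 and 0. Both double knockdown libraries lay above both p190A libraries for 62 members, which 29.6% of tested transcripts did. The count of 48 rested on the estimate of the spread shared by the 8 groups. In a fit of only these 4 libraries 7 members were called, and without double knockdown replicate 2 of the 8-group fit the count was 31.

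Against the p190B knockdown, 46 members were called higher in the double knockdown and 3 lower, with 15.3% and 16.3% of all tested transcripts called in these directions, 31.6% in all. The median log2 fold change was 0.69 against 0.00 for all tested, and 19 of the called members at least doubled. Leaving out 1 library at a time left 33 to 43 called higher. The 3 called lower had log2 fold changes from -1.14 to -0.30. The largest of these falls was that of ENSCAFT00000016074, at 94.9 and 75.5 CPM in the p190B libraries and 40.3 and 39.2 CPM in the double knockdown ones (log2 fold change -1.14, SE 0.18, edgeR adjusted p = 3.7e-04). For it, the p190B shRNA alone gave the highest sub-confluent level.

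Many members were also called higher with either knockdown alone than in sub-confluent wild type. These wild-type libraries had entered the rule through the density limit, so neither comparison is wholly separate from it. With the p190A shRNA, 34 members were called higher and 0 lower, with 4.66% of all tested transcripts called higher, 5.17% lower and 9.83% in either direction. The median log2 fold change was 0.60. At an unadjusted p under 0.05, 55 were higher and 1 lower, and DESeq2 called 37 and 1. The p190A count became 18 when wild-type replicate 1 was left out, 21 when wild-type replicate 2 was, and 9 in a fit of only these 4 libraries. With the p190B shRNA, 39 members were called higher and 0 lower, with 8.80% of all tested transcripts called higher, 9.23% lower, and a median log2 fold change of 0.54. At an unadjusted p under 0.05, 55 were higher and 1 lower, and DESeq2 called 39 and 0. This count fell to 24 without wild-type replicate 1 and to 24 without p190B replicate 1. Called rises reached 2.36 with p190A and 3.09 with p190B among members with at least 10 counts per group, and 6 and 16 of the called members at least doubled. The sub-confluent p190A minus p190B difference had a median of 0.09 and ran from -1.95 to 0.91 on the log2(CPM + 1) scale, and it was not tested.

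The group means set the single knockdowns between wild type and double knockdown for most members. In sub-confluent cells, 58 of 79 members had wild type lowest and the double knockdown highest with both single knockdowns in between, an order shown by 14.8% of all tested transcripts. The sub-confluent wild-type libraries were part of the density limit, so a low wild type here is not wholly separate from the rule. The double knockdown was the highest of the 4 groups for 69 members, and for 35.2% of all tested transcripts. The p190A mean reached or passed the double knockdown in 5 members and the p190B mean in 6, against 46.8% and 46.3% of all tested transcripts. On the log2(CPM + 1) scale the double knockdown differed from wild type by a median of 1.20, while the summed differences of the single knockdowns had a median of 1.06. Members varied widely around the sum: 24 exceeded it by over 0.5 and 13 fell short of it by over 0.5, with a median excess of 0.14 against 0.03 for all tested transcripts. No test was made of this departure. At confluence, where the wild-type and double knockdown libraries had chosen the members, the median differences from wild type were 0.55 with p190A and 0.44 with p190B. The median member covered 0.51 and 0.40 of the log2 distance from wild type to double knockdown.

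**Figure D3:**
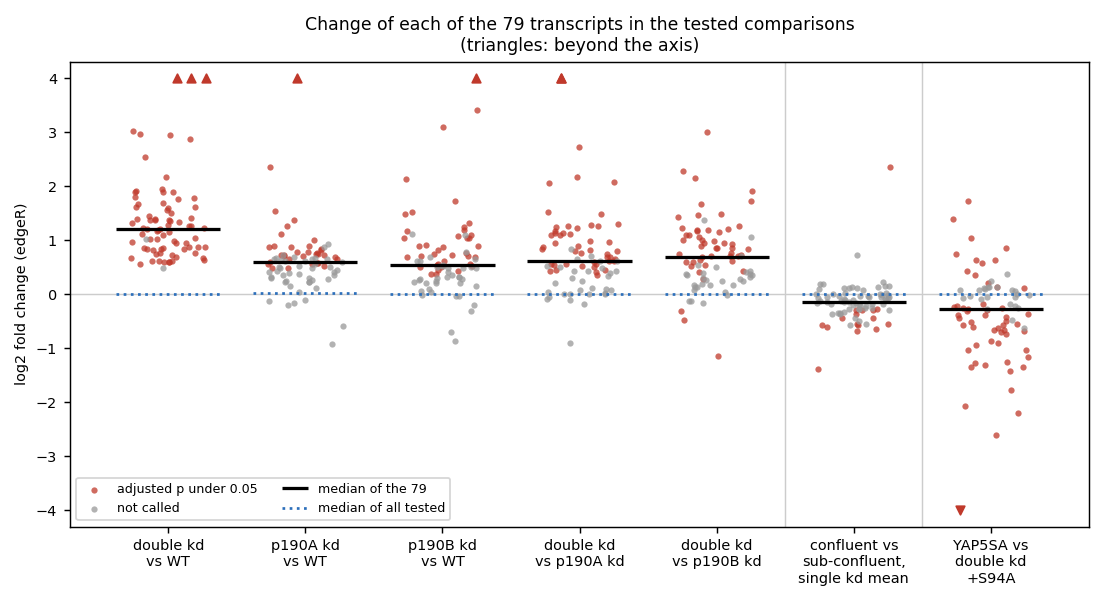
edgeR log2 fold changes of the 79 transcripts in the 7 tested comparisons (points, red where adjusted p was under 0.05), with the median of the 79 (black bar) and of all tested transcripts (dotted bar); the first 5 columns are sub-confluent cells of experiment 1. Medians were 1.21 for double knockdown, 0.60 for p190A and 0.54 for p190B against wild type, and 0.61 and 0.69 for double knockdown against the single knockdowns, while the YAP5SA column had a median of -0.27; triangles beyond the axis are members with few counts in a compared group.

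The response to density was tested in the single knockdown lines as the mean of the p190A and p190B responses. The rule had used the difference between these lines at confluence and not their mean, but the confluent libraries are the same, so the test is not wholly separate from it. At confluence 1 member was called higher and 15 lower, 16 of 79 in all, with 29.8% of all tested transcripts called in either direction. By direction, 1.27% of members and 14.3% of all tested transcripts were called higher. Called lower were 19.0% of members and 15.4% of all tested transcripts, so the share called lower was near the general one. The median log2 fold change was -0.15 against 0.00 for all tested, and 60 of 79 members were below 0. The wild-type density window that chose the members leaned the same way. Among the 76 members with at least 10 counts per group, called values ran from -1.38 to -0.27. The 1 member called higher was below that count. The count became 10 without confluent p190A replicate 2, 9 without confluent p190B replicate 2, 10 without sub-confluent p190A replicate 2 and 10 without sub-confluent p190B replicate 1. It rose to 23 without sub-confluent p190A replicate 1. In double knockdown cells the median difference was -0.12 on the log2(CPM + 1) scale and ran from -1.39 to 1.14, given without a test because the confluent libraries had chosen the members. At the top of that range was ENSCAFT00000016074, which stood at 82.0 and 95.6 CPM in confluent and 40.3 and 39.2 CPM in sub-confluent double knockdown libraries.

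Experiment 2 asked what active YAP, with and without TEAD binding, goes with when added to the cells. Values against wild type and double knockdown cells are descriptions, because those libraries had chosen the members. In double knockdown cells with YAP5SA+S94A, 74 of 79 member means lay between wild type and double knockdown, 3 below wild type and 2 above the double knockdown. Of all tested transcripts, 25.1%, 59.7% and 46.2% did, without the rise that the rule required of members. The S94A group was lower than the double knockdown by a median of 0.52 and higher than wild type by a median of 0.63 on the log2(CPM + 1) scale. The median member kept 0.52 of its log2 distance from wild type to double knockdown, with quartiles of 0.36 and 0.66. In 72 members all S94A libraries lay below all double knockdown libraries, which 30.6% of all tested transcripts did. The double knockdown libraries had chosen the members, so nothing is read from this count.

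In the libraries labelled YAP5SA the members scattered further. Of the 79 means, 52 lay between wild type and double knockdown, 22 below wild type and 5 above the double knockdown. Of all tested transcripts, 16.3%, 57.7% and 48.6% did. The rule set the double knockdown above wild type in every member, so nothing is read from these counts. The difference from wild type had a median of 0.31 and ran from -0.75 to 1.75 on the log2(CPM + 1) scale.

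**Figure D4:**
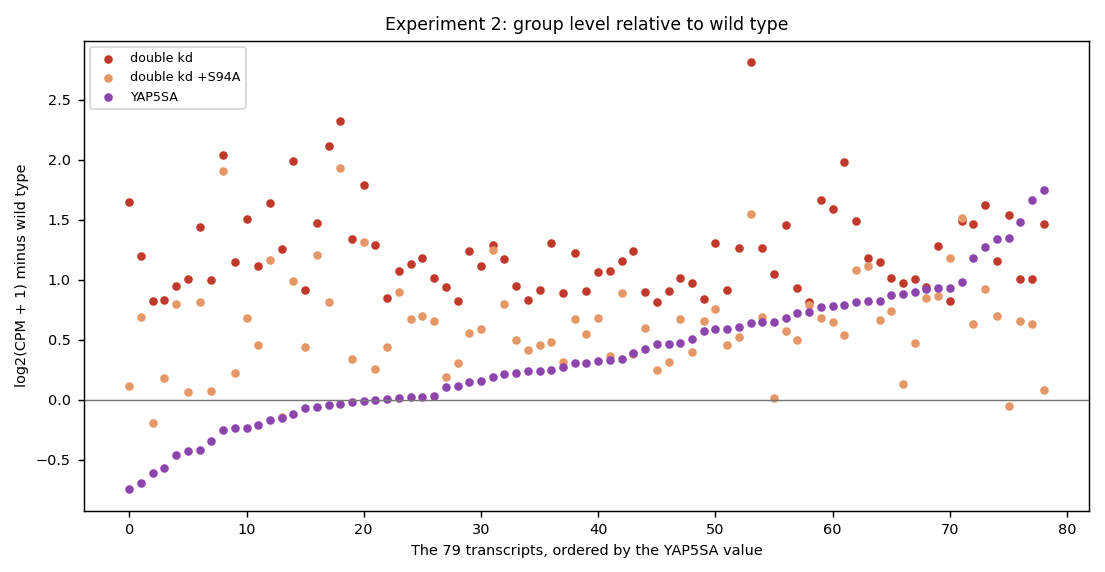
Level of each of the 79 transcripts in double knockdown, double knockdown with S94A and YAP5SA cells of experiment 2, as the difference from wild type in log2(CPM + 1), ordered by the YAP5SA value. Double knockdown points lie at 0.81 or above as the selection required, S94A points ran from -0.19 to 1.93, and YAP5SA points from -0.75 to 1.75.

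The YAP5SA libraries were tested against the S94A libraries, since no library of either group had entered the rule. The S94A cells held both shRNAs, though, and the members were chosen to be high with both shRNAs in this experiment. If the YAP5SA cells lacked the shRNAs, the rule favoured calls lower in YAP5SA, so the test is not wholly separate from it. Of the 79 members, 42 were called lower in YAP5SA and 13 higher, with 26.5% and 27.8% of all tested transcripts called in these directions, 54.3% in all (edgeR adjusted p under 0.05). The median log2 fold change was -0.27 against 0.00 for all tested. In 48 members both YAP5SA libraries lay below all S94A libraries, and in 16 they lay above, against 33.2% and 35.5% of all tested transcripts. Changes by at least 1 on the log2 scale were called in 14 members downwards and in 3 upwards, and the shares of all tested transcripts at this size are not given. Leaving out 1 library at a time gave 39 to 42 called lower and 11 to 15 called higher. The 1 member at 0 counts in both YAP5SA libraries was at least 6.49-fold lower than in S94A cells, taking 3 counts per library as the floor, and the median is the same with it at that bound. This comparison changes the YAP construct and, depending on which label holds, also the shRNAs, and these cannot be told apart.

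ENSCAFT00000037270 showed the largest eligible fall. It was at 116, 115 and 121 CPM in the S94A libraries and at 25.7 and 25.5 CPM in the YAP5SA libraries, a log2 fold change of -2.20 (SE 0.06, edgeR adjusted p = 3.1e-39). Double knockdown cells of this experiment held 129 ± 1.90 CPM and wild-type cells 30.7 ± 2.00 CPM (SD, n = 3 each). The S94A libraries were therefore close to the double knockdown and the YAP5SA libraries just below wild type. In sub-confluent cells of experiment 1 this transcript missed the adjusted threshold with p190A knockdown alone. It was the 1 member lower in that comparison at an unadjusted edgeR p under 0.05, and its p190A libraries lay below both wild-type ones. Its p190A libraries held 11.0 and 17.7 CPM against 26.4 and 28.5 CPM in wild type (log2 fold change -0.92, SE 0.28, edgeR adjusted p = 0.055). It was higher with p190B knockdown, at 69.8 and 47.3 CPM (log2 fold change 1.10, SE 0.27, edgeR adjusted p = 0.012). The double knockdown libraries held 130 and 68.0 CPM and exceeded p190A by 2.73 on the log2 scale (SE 0.28, edgeR adjusted p = 3.2e-05).

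ENSCAFT00000016074 was next, at 43.1, 43.7 and 48.6 CPM in the S94A libraries and at 10.6 and 11.0 CPM in the YAP5SA libraries (log2 fold change -2.06, SE 0.09, edgeR adjusted p = 4.2e-29). Wild-type cells held 11.1 ± 1.26 CPM and double knockdown cells 59.6 ± 1.31 CPM (SD, n = 3 each). The YAP5SA libraries overlapped the wild-type range. ENSCAFT00000045978 went the other way. It was at 428, 410 and 417 CPM in the S94A libraries and at 1129 and 1084 CPM in the YAP5SA libraries, a log2 fold change of 1.396 (SE 0.04, edgeR adjusted p = 2.7e-40). Wild-type cells held 433 ± 2.74 CPM and double knockdown cells 1261 ± 47.4 CPM (SD, n = 3 each), so for this member S94A cells were near wild type and YAP5SA cells near the double knockdown.

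Split by that test, the members are set against wild type as a description with no test, since the split itself used the YAP5SA values. The 13 called higher in YAP5SA all had YAP5SA means above wild type, with a median difference of 1.18 on the log2(CPM + 1) scale. Of the 42 called lower, 22 were above wild type and the median difference was 0.01. Of the 24 not called, 22 were above wild type, with a median of 0.58. All 3 classes had risen by similar amounts in sub-confluent double knockdown cells of experiment 1, by medians of 1.21, 1.15 and 1.21. The experiments share no library, but the rule required a confluent double knockdown rise of at least 0.8 in both from every member. Similar rises in the 3 classes are therefore not wholly separate from the rule.

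Across the 79 members, the sub-confluent rise of experiment 1 and the rise of experiment 2 were weakly related (Pearson's r = 0.321, Spearman's rank correlation = 0.269, a description over transcripts that share their libraries, in which the rule admits no experiment 2 rise under 0.8). Abundance was nearly unrelated to the sub-confluent rise (r = 0.042) and to the YAP5SA minus S94A difference (r = 0.145).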

How the data were processed

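The authors deposited 1 table of whole-number read counts per sample for 29884 Ensembl dog transcripts, not normalized, from single-read TruSeq mRNA libraries per the labels' protocols. CanFam3.1, DESeq2 1.4.5, HTSeq 0.6.0 and STAR 2.3.1n are listed, without roles, per the submitters' processing notes, and the sources used here do not give strand use. The 5 summary rows were left out of totals and tests: ambiguous reads were 20.3% to 23.1% of uniquely aligned reads and reads outside transcripts 21.2% to 23.8%, so transcripts that overlap others are measured from part of their reads. Of 28 files, 1 YAP5SA file repeated another in every row and was dropped, leaving 27 libraries.

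CPM used the transcript total of each library. Tests used edgeR 4.0.16 in R 4.3.3 (filterByExpr, TMM, robust quasi-likelihood, Benjamini-Hochberg), with 1 fit of the 16 libraries of experiment 1 and 1 of the 11 of experiment 2. SE was derived from the F statistic. On data simulated for the sub-confluent double knockdown comparison over 12845 transcripts, 85% of 2-fold changes were recovered. For YAP5SA against S94A over 13061 transcripts, 98% were. False calls numbered 2 and 12. The simulation gave all transcripts a common spread and put changes only in transcripts above a minimum mean count. Its recovery therefore does not carry over to members with few counts or a wider spread. Alternatives were DESeq2 1.42.0, RLE scaling, no filter, fits of only the groups compared, replicate blocks and leaving out each library. Within a density, same-numbered libraries of experiment 1 moved together around their group means (r 0.142 to 0.537 over 12 pairs of groups) but not between densities (-0.200 to 0.026 over 16 pairs), so a block within density fits the data. The main counts and all SEs and p-values of single transcripts are nevertheless from fits without a block.

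The members and lists were chosen with earlier results of these data known. Named identifiers are the first 2 members by log2 fold change called higher in sub-confluent double knockdown against wild type (65 eligible) and the first 2 called lower in YAP5SA against S94A (35 eligible). To be eligible, a member needed a log2 CPM averaging 3 or more and groups whose libraries did not overlap. Gene lists and cell type markers were not run, as no identifier has a symbol.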

Additional observations from a re-analysis of the deposited data

Results flagged for a closer look

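The response to density of 2 named transcripts went opposite ways in different lines, every confluent library lying above every sub-confluent one in 1 line and below in another. These differences between lines were not tested. For ENSCAFT00000037270, confluent minus sub-confluent on the log2(CPM + 1) scale was 0.7711 with the p190A shRNA, 0.1598 in wild type and -0.487 with the p190B shRNA. For ENSCAFT00000016074 it was -0.237 in wild type, 0.452 with the p190A shRNA and 1.14 with both shRNAs. With 2 libraries per group, a lack of overlap is a weak criterion. The wild-type values were also limited in size by the rule that chose the members.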

How the results depend on the processing

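Applied to other settings, the rule gave 97 members with a pseudocount of 0.5 CPM (76 shared with the 79), 71 with a pseudocount of 2 CPM (63 shared), 83 with TMM-scaled CPM (65 shared), and 69 to 96 when 1 library was left out. In fits of only the groups compared, the members called higher in the sub-confluent double knockdown fell from 48 to 7 against p190A, and those called higher with p190A against wild type from 34 to 9. Fits of the same 4-library form gave 72 for double knockdown against wild type, 43 for double knockdown against p190B and 47 for p190B against wild type, so the lower counts were those with the p190A group, and the cause was not tested. With a replicate block within density, the counts were 78 for double knockdown against wild type, 56 and 52 against p190A and p190B, 47 and 51 for p190A and p190B against wild type, and 12 for density in the single knockdowns, none moved by over 1.5 times. A replicate block across densities gave 77, 50, 46, 36, 42 and 16 in that order. No paired analysis was possible for YAP5SA against S94A because the YAP5SA libraries carry no shared numbers. Leaving out 1 library, assuming the lone library varies like the others, gave 65 to 74, 31 to 47, 33 to 43, 18 to 37, 24 to 30 and 9 to 23 for the 6 comparisons of experiment 1, and 11 to 15 higher and 39 to 42 lower for YAP5SA. The median differences over members were 1.10 to 1.17 for the sub-confluent double knockdown and -0.26 to -0.22 for YAP5SA minus S94A when 1 library was left out. Leaving the sub-confluent p190A group out of the fit, chosen after seeing the data, moved no count by over 1.5 times. The 4 log2 fold changes by which transcripts were named kept their sign and call in all 40 refits. Members under 10 counts in a group limit single fold changes.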
